A study of Mus musculus with 6 samples.

Results

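The genes described here are 10 regulators and markers of skeletal muscle formation, taken by name from the 26814 gene symbols of the count matrix. All 10 were present. They comprise the myogenic basic helix-loop-helix factors Myf5, Myod1, Myog and Myf6, the MADS-box factors Mef2a, Mef2c and Mef2d, the TEAD cofactor Vgll2, and the satellite cell genes Pax7 and Cdh15. RNA came from the top lip of adult female C57BL/6J mice, with 3 wild type (WT) mice and 3 mice of the targeted line Gtf2ird1 tm1Hrd (knockout, KO), 1 mRNA library per mouse. The study gives an age range of several months for all mice together and no age per genotype. The line carries its mutation on the same background, no treatment is named for either group, and whole lip holds epidermis, dermis, muscle, vessels and nerve together.

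Skeletal muscle is built and repaired by a chain of transcription factors. PAX7 marks the satellite cells, the resident stem cells that lie against the fibre and use the cadherin encoded by Cdh15 (M-cadherin) to adhere. MYF5 and MYOD1 commit these cells to the muscle lineage, MYOG drives their differentiation and fusion, and MYF6 (MRF4) is the member of the family that stays most abundant in adult fibres. All 4 bind E-box DNA as dimers with the widely expressed E proteins, and they act together with the MEF2 factors, which bind an A/T-rich sequence in many muscle genes and are held in check by class IIa histone deacetylases. VGLL2 has no DNA-binding domain of its own and acts through TEAD factors, and its gene is expressed mainly in skeletal muscle. The muscles of the face and lip arise from the branchial arches and use their own upstream factors, among them TBX1.

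Upstream sequence is shown for Vgll2, the member with the largest difference between genotypes, for Myog, and for Mef2a, the member with the smallest difference, so that the letters before the starts of genes that behaved differently can be compared. The RefSeq table used here (GRCm38.p6) held start sites for 8 of the 10 members. The 250 bases before the start are printed 5′ to 3′ on the gene's strand, with E-boxes (CANNTG) and MEF2 core matches (TA, then 4 bases each A or T, then TA) in capitals. The Vgll2 window is chr10:52022252-52022501 on the plus strand, the Myog window chr1:134289754-134290003 on the plus strand, and the Mef2a window chr7:67372859-67373108 on the minus strand.
Vgll2: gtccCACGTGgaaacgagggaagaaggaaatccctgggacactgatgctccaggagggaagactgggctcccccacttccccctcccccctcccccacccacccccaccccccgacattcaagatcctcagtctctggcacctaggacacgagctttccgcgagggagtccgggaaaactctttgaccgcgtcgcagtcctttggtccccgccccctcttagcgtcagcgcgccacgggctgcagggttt
Myog: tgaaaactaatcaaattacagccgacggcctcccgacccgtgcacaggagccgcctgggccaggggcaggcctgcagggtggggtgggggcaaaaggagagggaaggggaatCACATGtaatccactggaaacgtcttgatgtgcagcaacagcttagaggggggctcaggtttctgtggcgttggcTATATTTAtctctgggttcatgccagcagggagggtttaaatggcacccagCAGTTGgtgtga
Mef2a: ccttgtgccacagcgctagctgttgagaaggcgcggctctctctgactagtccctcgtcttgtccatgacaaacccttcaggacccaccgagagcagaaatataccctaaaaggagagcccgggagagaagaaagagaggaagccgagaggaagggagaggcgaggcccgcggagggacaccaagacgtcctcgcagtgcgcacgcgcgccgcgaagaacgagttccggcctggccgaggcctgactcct
The Myog window held 2 E-boxes, CACATG at 138 to 133 and CAGTTG at 12 to 7 bases before the start, and a MEF2 core match, TATATTTA, at 63 to 56 bases before it. The Vgll2 window held a single E-box, CACGTG, at 246 to 241 bases before the start, and the Mef2a window held neither motif. Both patterns were searched on both strands and read alike on either, and no match of one overlapped a match of the other. The last bases of the Myog window lie inside the GENCODE gene, which starts slightly earlier than the RefSeq one, and the whole windows of Cdh15 and Pax7 lie inside theirs. Among all 32851 start windows of this length, 66.2% held at least 1 E-box, 31.8% held 2 or more, and 8.56% held a MEF2 core match. Across the other members, Cdh15 had 3 E-boxes, the first of the 3 Mef2c windows had 2 E-boxes and a MEF2 core match, the third Mef2c window had 1 E-box, and the windows of Myf5, Mef2d and Pax7 had none of either. CATTCC, the M-CAT element bound by TEAD factors, was searched on both strands and was present in the first Mef2c window alone among those of the members, against 12.6% of all windows. These are letter matches and not tested binding sites.

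Total counts on genes ranged from 20164081 to 29491767 per library. The targeted gene was checked first: Gtf2ird1 lay between 70.2 and 78.2 CPM (the count scaled to a common library size) in the WT libraries and between 144 and 166 CPM in those labelled KO (log2 fold change 1.11, adjusted p = 0.0018, edgeR quasi-likelihood test), so that it was higher where the label says knockout, and all directions below are given for libraries by label. Per the methods of the study, each mouse was genotyped when young and again from a tail biopsy taken with the lip. Gene totals carry no information on which allele a read came from. Skeletal muscle RNA was summarised by 24 genes of the fibre (the contractile apparatus, calcium release and glycolysis), such as Ttn, Tnnt3 and Ryr1. Their summed level was 18580, 14988 and 18247 CPM across WT1 to WT3, against 7330, 7716 and 11660 CPM across KO1 to KO3. KO3 therefore held 67.5% of the WT mean where KO1 held 42.4% and KO2 44.7%. In whole tissue, fewer muscle cells, less RNA per muscle cell and a larger share of RNA from other lip tissue cannot be told apart. Tnnc1, Tnnc2 and Myh7 of this list had at most 8 counts in any library, and of 4 cardiac muscle genes Myh6, Nppa and Myl7 were at most 0.553 CPM while Tnni3 lay between 1.01 and 2.35 CPM (log2 fold change 0.27, adjusted p = 0.615). Markers of other cell types also varied: 5 smooth muscle genes summed to 254 to 297 CPM in WT, against 173 to 232 CPM in those labelled KO, with 1 of the 5 called lower (Tagln, log2 fold change -0.59, adjusted p = 0.0437). The sum of 4 dermal fibroblast genes was 2586 to 3236 CPM in WT, against 1275 to 2543 CPM, that of 4 Schwann cell genes 193 to 205 CPM, against 84.0 to 165 CPM, and that of 4 basal keratinocyte genes 9514 to 10265 CPM, against 8954 to 10798 CPM, with 0 called in each of these 3 lists by edgeR (0, 2 and 1 lower at an unadjusted p under 0.05). Their part in the values of the members was not tested.

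Of the 10 members, 9 passed the filter of at least 1 CPM in at least 3 libraries. Of these, 8 had a negative log2 fold change in the libraries labelled KO, where 52.0% of all tested genes did, and the median over the 9 was -1.11 against -0.02 over all 15009 tested genes. At an adjusted p under 0.05 in the quasi-likelihood test, 1 member, Vgll2, was called lower (2.09% of all tested genes were) and 0 were called higher (4.38% of all tested genes were). At an unadjusted p under 0.05, 8 members were lower, against 16.0% of all tested genes, and 0 were higher. Neither the exact test nor DESeq2 called a member higher, where they called 1165 of 15009 and 1511 of 16927 genes higher. With edgeR's exact test, the test of the study, 6 members passed an adjusted p of 0.05, all lower, where 7.15% of tested genes did, and DESeq2 called 3, where 5.31% of its tested genes were called lower. In 5 members the 3 values of the libraries labelled KO all lay below the 3 WT values, as in 18.1% of tested genes, and the other 5, the untested Myf5 among them, overlapped. These counts are descriptions and carry no test of their own. Pax7 passed the filter through the WT libraries alone, since none of the libraries labelled KO reached 1 CPM, and Myf5 did not pass.

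**Figure D1:**
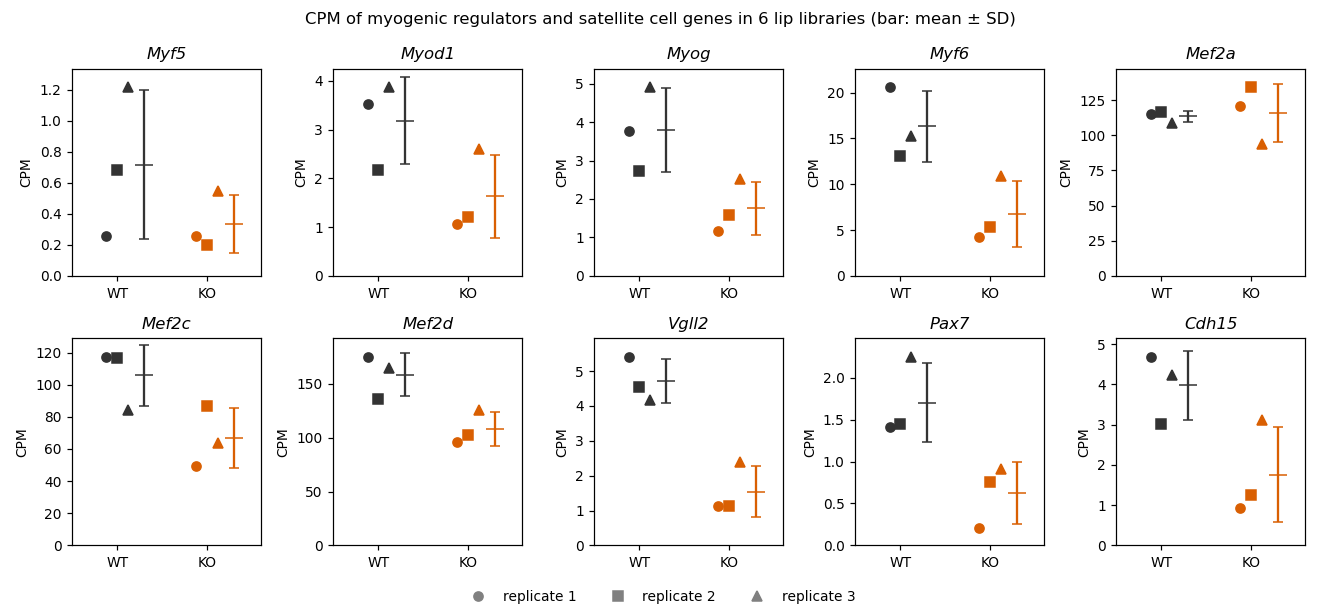
CPM (y axis, linear from 0) of the 10 members in the 3 WT (grey) and 3 KO-labelled (orange) libraries, with the replicate number as symbol and mean ± SD beside the points. Myog, Myf6, Mef2d, Vgll2 and Pax7 do not overlap between genotypes, the KO-labelled range of Mef2a encloses its WT range, and replicate 3 is the highest KO-labelled library in 8 of 10 panels.

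Vgll2 (chromosome 10, 52022502 to 52028471) showed the largest difference. Its level was 5.41, 4.55 and 4.18 CPM across WT1 to WT3, against 1.13, 1.12 and 2.38 CPM across KO1 to KO3. All 3 WT libraries lay above all 3 labelled KO, and KO3 was the closest to them. The mean fell from 4.71 ± 0.629 CPM (SD, n = 3) to 1.54 ± 0.725 CPM (SD, n = 3), to 32.7% of the WT level (log2 fold change -1.62 ± 0.32 (SE), 95% interval -2.36 to -0.88, adjusted p = 0.0266 in the quasi-likelihood test). It was called in all 9 alternative analyses of the 6 libraries. Leaving out single libraries gave log2 fold changes from -2.06 to -1.36, with a call in 1 of the 6 fits, that without KO replicate 3 (adjusted p = 0.000810).

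Among the 4 myogenic basic helix-loop-helix genes, Myf6 had the highest level per kilobase of exon in every library. Myf6 (chromosome 10, 107492853 to 107494737) had 20.6, 13.1 and 15.2 CPM across WT1 to WT3, against 4.20, 5.29 and 10.9 CPM across KO1 to KO3, so that the genotypes did not overlap although KO3 came near WT2. The mean was 16.3 ± 3.84 CPM in WT, against 6.79 ± 3.59 CPM in those labelled KO (SD, n = 3 each), 41.6% of the WT level. The log2 fold change of -1.27 (SE 0.36) had adjusted p-values of 0.0727 (quasi-likelihood), 0.00297 (exact test) and 0.00999 (DESeq2).

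Myog (chromosome 1, 134289989 to 134292548), the differentiation factor, gave 3.77, 2.72 and 4.90 CPM across WT1 to WT3, against 1.18, 1.58 and 2.51 CPM across KO1 to KO3. These values did not overlap, although WT2 and KO3 came close. The log2 fold change was -1.11 (SE 0.34), with adjusted p-values of 0.0829 (quasi-likelihood), 0.0173 (exact test) and 0.0375 (DESeq2). Myod1 (chromosome 7, 46376474 to 46379099), the commitment factor, stood at 3.52, 2.17 and 3.87 CPM across WT1 to WT3, against 1.07, 1.22 and 2.61 CPM across KO1 to KO3. Here KO3 lay above WT2 and the genotypes overlapped. Its log2 fold change of -0.97 (SE 0.38, adjusted p = 0.141) passed in none of the 9 alternatives that used all libraries.

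Myf5 (chromosome 10, 107482908 to 107486134), the earliest of the family in the embryo, lies 6718 bases from Myf6 on the same strand. It was close to the limit of detection, with 7, 16 and 27 counts in WT1, WT2 and WT3 and 5, 6 and 12 counts in KO1, KO2 and KO3. On the CPM scale this was 0.716 ± 0.481 in WT, against 0.334 ± 0.188 in those labelled KO (SD, n = 3 each), and WT1 was as low as KO1. The values overlapped between genotypes (two-sided exact permutation test, p = 0.3, n = 3 against 3, which cannot go below 0.1). In the fit without a filter the log2 fold change of -1.03 had a 95% interval of -2.35 to 0.28.

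Both satellite cell genes were rare. Pax7 (chromosome 4, 139737062 to 139833528) had 39, 34 and 50 counts in WT1, WT2 and WT3, but 4, 23 and 20 counts in KO1, KO2 and KO3. The corresponding CPM values of 1.42, 1.45, 2.25, 0.205, 0.756 and 0.915 did not overlap between genotypes, and KO1 was the lowest by a wide margin. The log2 fold change was -1.40 (SE 0.45, 95% interval -2.43 to -0.36, adjusted p = 0.0923 in the quasi-likelihood test and 0.0106 in the exact test). Since Pax7 entered the fit by its WT values, some difference was built into its selection. Cdh15 (chromosome 8, 122847966 to 122867397, overlapping Gm20388 on the same strand) gave 4.68, 3.02 and 4.23 CPM across WT1 to WT3, against 0.921, 1.25 and 3.11 CPM across KO1 to KO3. KO3 lay slightly above WT2 while KO1 and KO2 lay under every WT library, and the log2 fold change of -1.18 (SE 0.43) had adjusted p-values of 0.118 (quasi-likelihood) and 0.0310 (exact test).

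None of the 3 Mef2 genes passed the quasi-likelihood test. Mef2d (chromosome 3, 88142372 to 88172086, overlapping 1700113A16Rik on the opposite strand) measured 175, 136 and 164 CPM across WT1 to WT3, against 95.9, 102 and 126 CPM across KO1 to KO3. The genotypes did not overlap, and the log2 fold change was -0.55 (SE 0.16, 95% interval -0.92 to -0.19, adjusted p = 0.0749). Mef2c (chromosome 13, 83504034 to 83667080) measured 117, 116 and 83.9 CPM across WT1 to WT3, against 49.5, 87.0 and 63.8 CPM across KO1 to KO3, and KO2 exceeded WT3. Its log2 fold change was -0.66 (SE 0.23, adjusted p = 0.105 in the quasi-likelihood test and 0.0456 in the exact test). Mef2c is also expressed in endothelium and B cells. In the same libraries the summed level of 6 endothelial markers was 192 to 231 CPM in WT, against 132, 150 and 229 CPM across KO1 to KO3. Of the 6, 0 were called, and 1 was lower at an unadjusted p under 0.05. The 3 B cell markers summed to less than 1 CPM in every library. The part of these cells in the Mef2c values was not tested.

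Mef2a (chromosome 7, 67231163 to 67372858, overlapping Lysmd4 on the opposite strand) was the only member that did not have a lower mean. It measured 115, 116 and 109 CPM across WT1 to WT3, against 121, 134 and 93.5 CPM across KO1 to KO3, which placed the libraries labelled KO on both sides of the WT. The log2 fold change was 0.03 (SE 0.15, adjusted p = 0.899), with a 95% interval of -0.32 to 0.39, and its sign turned to -0.03 under upper-quartile normalization and also without KO replicate 2. KO3, which gave the highest value among the libraries labelled KO for 8 of the 10 members, gave the lowest for Mef2a.

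**Figure D2:**
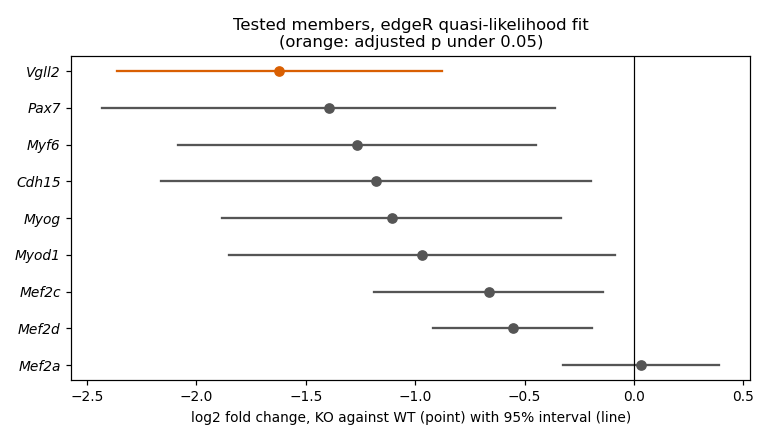
Log2 fold changes (x axis) of the 9 tested members from the quasi-likelihood fit, with 95% intervals as lines. The interval of Mef2a spans 0, the other 8 lie below 0, and Vgll2 alone (orange) passed an adjusted p of 0.05.

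Levels between genes were compared as CPM per kilobase of exon. In WT the order began with Mef2d at 26.5 ± 3.35 CPM per kb (SD, n = 3), followed by Myf6 at 12.9 ± 3.04, Mef2a at 7.72 ± 0.275 and Mef2c at 6.74 ± 1.21. Vgll2 at 2.86 ± 0.381, Myog at 2.54 ± 0.730, Myod1 at 1.71 ± 0.483 and Cdh15 at 1.22 ± 0.264 came next, and Myf5 at 0.344 ± 0.231 and Pax7 at 0.291 ± 0.0807 came last. The ranges of Mef2a and Mef2c overlapped across the WT libraries, as did those of each neighbouring pair from Vgll2 to Cdh15 and of Myf5 and Pax7. Within libraries, Mef2a exceeded Mef2c, Myog exceeded Myod1 and Myod1 exceeded Cdh15 in 3 of 3 WT libraries, whereas Vgll2 exceeded Myog, and Myf5 exceeded Pax7, in 2 of 3. In the libraries labelled KO, Mef2a at 7.90 ± 1.40 CPM per kb ranked above Myf6 at 5.38 ± 2.84, with overlapping ranges and in 2 of 3 libraries, and Myog at 1.18 ± 0.459 ranked above Vgll2 at 0.934 ± 0.439, with overlapping ranges but in 3 of 3 libraries.

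Shares within each family do not depend on how libraries are scaled. Per kilobase of exon, Myf6 made up 73.7% ± 5.90 of the reads of the 4 myogenic helix-loop-helix genes in WT and 70.3% ± 1.52 in the libraries labelled KO (SD, n = 3 each). Myog made up 14.5% ± 3.23 and 16.0% ± 1.80, Myod1 9.71% ± 1.61 and 11.5% ± 0.570, and Myf5 2.07% ± 1.35 and 2.11% ± 0.493. The share of each of these 4 genes overlapped between genotypes. Among the Mef2 genes the share of Mef2a was 17.6, 20.8 and 18.4% across WT1 to WT3, against 30.0, 28.7 and 20.3% across KO1 to KO3, higher in KO1 and KO2 than in any WT library while KO3 lay within the WT range. Over the 7 shares compared, the two-sided exact permutation p-values ran from 0.2 to 1, and the smallest adjusted value was 0.56; 3 libraries against 3 cannot go below 0.1.

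**Figure D3:**
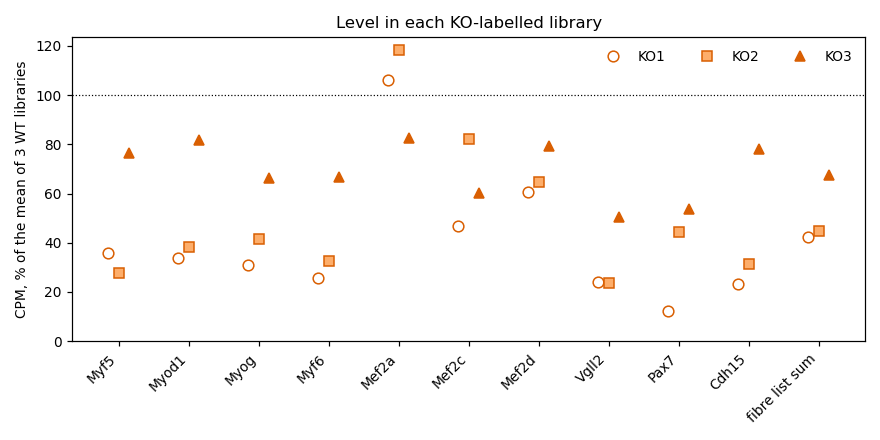
Level of each member, and of the summed muscle fibre list, in the 3 KO-labelled libraries as a percentage of the mean of the 3 WT libraries (y axis, CPM; dotted line at 100%). KO3 stands at 50.5% for Vgll2 and 66.7% for Myf6 where KO1 stands at 23.9% and 25.7%, and KO3 is also the highest of the 3 for the fibre list.

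To show how far the members moved apart from the fibre genes, each member's log2(CPM + 0.5) was set against the mean of the same measure over the 24 fibre genes in the same library. The fibre mean itself was 6.93 ± 0.142 in WT, against 6.10 ± 0.324 in those labelled KO (SD, n = 3 each), a difference of -0.84 on the log2 scale. Relative to it, the median difference over the 10 members was -0.05, with 5 members below 0 and 5 above. Myod1 (0.01), Myog (-0.11), Mef2c (0.15), Pax7 (-0.17) and Cdh15 (-0.25) had genotypes that overlapped on this scale, as did Myf5 (0.35) and Myf6 (-0.45). The added 0.5 CPM shrinks the differences of rare members more than those of abundant fibre genes. With 0.1 CPM added, Myf5 stood at 0.08, Myod1 at -0.11, Pax7 at -0.58 and Cdh15 at -0.41. Mef2a, Mef2c and Mef2d moved slightly up. Whether the rare members fell less than the fibre genes therefore depends on this setting. Relative to the fibre mean, Vgll2 was -4.53, -4.48 and -4.67 across WT1 to WT3, against -5.11, -5.34 and -4.92 across KO1 to KO3, lower in each library labelled KO than in any WT library by this measure. Its difference of -0.57 lay between -0.75 and -0.42 with other ways of forming the measure and between -0.67 and -0.46 with a library left out. Mef2a (0.85) and Mef2d (0.28) were higher relative to the fibre genes in all 3 libraries labelled KO, with Mef2a standing at 1.11, 1.04 and 0.11 across KO1 to KO3 and at most at 0.06 in WT on this scale. For Vgll2, Mef2a and Mef2d the two-sided exact permutation p was 0.1, the smallest that 3 against 3 allow. Both of these Mef2 genes are expressed in many cell types besides muscle, and the part of those cells was not tested.

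**Figure D4:**
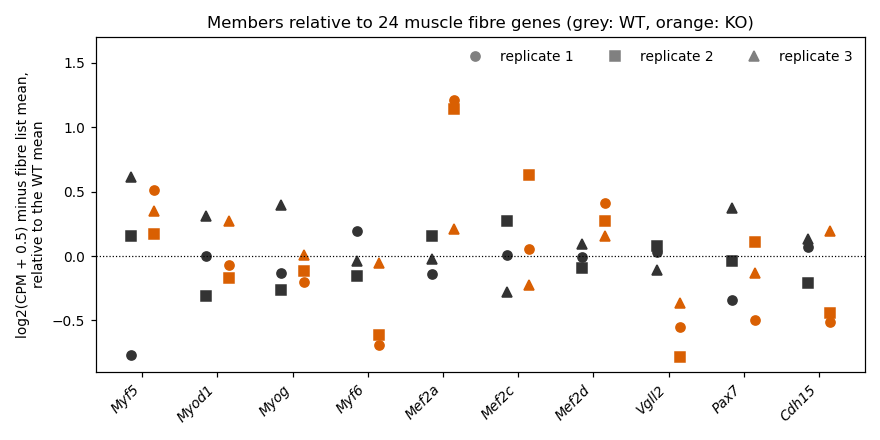
Each member relative to the mean of 24 muscle fibre genes in the same library, on the log2(CPM + 0.5) scale and centred on the WT mean of that member (y axis; grey WT, orange KO-labelled, symbols by replicate number). The KO-labelled points of Vgll2 lie below all its WT points, those of Mef2a and Mef2d above theirs, and the other 7 members overlap.

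The genes whose values over the 6 libraries were most like those of each member were sought by the root mean square (r.m.s.) difference of centred log2(CPM + 0.5). For Myf6 the nearest were Des (r.m.s. 0.06), Pygm (0.07) and Acta1 (0.08), which encode desmin, muscle glycogen phosphorylase and skeletal actin, and 12 of its 100 nearest genes belonged to the fibre or target lists. For Vgll2 they were H19 (0.08), Camk2a (0.11) and Ankrd2 (0.11), with 11 of 100, and for Cdh15 the nearest included Parvb (0.07) and Slc2a4 (0.07), with 10 of 100. Myod1 (Twf2, Pf4 and Selm) and Myog (Mfap2, Apbb1 and 6030419C18Rik) each had 1 such gene in 100, and Pax7 (5430421N21Rik, Krtap13-1 and Krt33b) had 2. The fibre and target lists held 21 and 12 of the 15009 tested genes. The added 0.5 CPM shrinks the differences of rare genes such as Myod1, Myog and Pax7. Their nearest genes had smaller log2 fold changes, such as Twf2 (-0.73) for Myod1 (-0.97) and Krt33b (-0.77) for Pax7 (-1.40). Mef2c was nearest to Gsta2, Dio3os and Nudt11, Mef2d to Arl8a, Ube2d1 and Pik3c2b, and Mef2a to Jmy, Fbxw17 and 1700029I15Rik. These likenesses are descriptions over 6 libraries that share their depth and their 2 genotypes.

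Counts over the gene lists below stand beside the same shares of all tested genes as those of the members. Of all tested genes, 52.0% were negative, 16.0% were lower at an unadjusted p under 0.05, and 2.09% were called lower. The exact test called 7.15% lower and DESeq2 called 5.31% of its tested genes lower. Genes known to be activated by these factors were examined from a list of 12. All 12 were tested and all had a negative log2 fold change (median -1.04). Of these, 1 was called lower, the sarcomeric actin gene Actc1, which fell from 23.1 ± 6.64 to 6.93 ± 2.75 CPM (SD, n = 3 each; log2 fold change -1.74 ± 0.32 (SE), adjusted p = 0.0203; overlapping A530058N18Rik on the opposite strand). With a library left out it was called in 2 of the 6 fits, those without WT replicate 2 and without KO replicate 3. Des, encoding the intermediate filament desmin (-1.27, adjusted p = 0.0638), Cav3, encoding muscle caveolin (-1.10, adjusted p = 0.0641), and the myosin light chain gene Myl1 (-0.89, adjusted p = 0.0614) did not pass. The exact test called 10 of the 12 lower and DESeq2 called 8. Of the 21 tested fibre genes, all 21 were negative (-1.22 to -0.03) and 3 were called lower, Tcap (-1.04, adjusted p = 0.0248), Tnnt3 (-1.01, adjusted p = 0.0397, overlapping Prr33 on the opposite strand) and Tnni2 (-1.05, adjusted p = 0.0484), each of which was called in 1 of the 6 fits with a library left out, that without KO replicate 3. Tcap was called in 9 of 9 alternatives, Tnnt3 in 8 and Tnni2 in 6. Mylpf, a fast myosin light chain gene, followed with 740 ± 148 CPM in WT, against 370 ± 114 CPM in those labelled KO (adjusted p = 0.0521). The exact test called 16 of these lower and DESeq2 called 14.

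Of 13 other satellite cell and myoblast genes, 12 were tested, 10 with a negative log2 fold change (median -0.23), 1 called lower and 0 called higher (3 lower and 1 higher at an unadjusted p under 0.05, and 2 lower and 1 higher in the exact test and in DESeq2 alike). The called gene was Ncam1, a neural cell adhesion molecule also present on myoblasts and nerve, at 11.5, 10.8 and 10.5 CPM in the 3 WT libraries and 4.86, 4.41 and 7.59 CPM in KO1, KO2 and KO3 (log2 fold change -0.96, adjusted p = 0.0482). This call was kept in 5 of 9 alternatives and, among fits with a library left out, in that without KO replicate 3. The part of the Schwann cells, whose summed markers are given above, in the Ncam1 value was not tested. Itga7, the laminin receptor subunit of muscle (-0.93, adjusted p = 0.0795), the Notch target gene Heyl (-0.66, adjusted p = 0.103) and Met, the receptor for hepatocyte growth factor (0.71, adjusted p = 0.0607), did not pass. Calcr, the calcitonin receptor gene of quiescent satellite cells, had at most 4 counts per library.

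Upstream factors of head muscle formed a list of 10, of which 8 were tested. All 8 had negative log2 fold changes (median -0.58), as did 52.0% of all tested genes. In 7 the values labelled KO all lay below the WT values, as in 18.1% of all tested genes. At an unadjusted p under 0.05, 6 were lower, against 16.0% of all tested genes, while 0 were called by the quasi-likelihood test. The exact test called 3 lower and DESeq2 called 2. Lhx2, a LIM homeobox gene also active in hair follicles, had a log2 fold change of -0.72 (adjusted p = 0.0755, overlapping Gm13584 and Gm27197 on the opposite strand), and Eya4, a transcriptional coactivator, had -0.71 (adjusted p = 0.139). Lhx2, Id3, Twist1, Actc1, Tead2 and the members Myf6, Myog, Pax7, Vgll2 and Mef2c were among the genes the study selected on these libraries. All other genes described here were measured in the same libraries too, so none gives independent evidence of a direction. Msc and Tcf21, which specify branchial muscle, stayed under the filter with at most 16 and 6 counts per library.

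**Figure D5:**
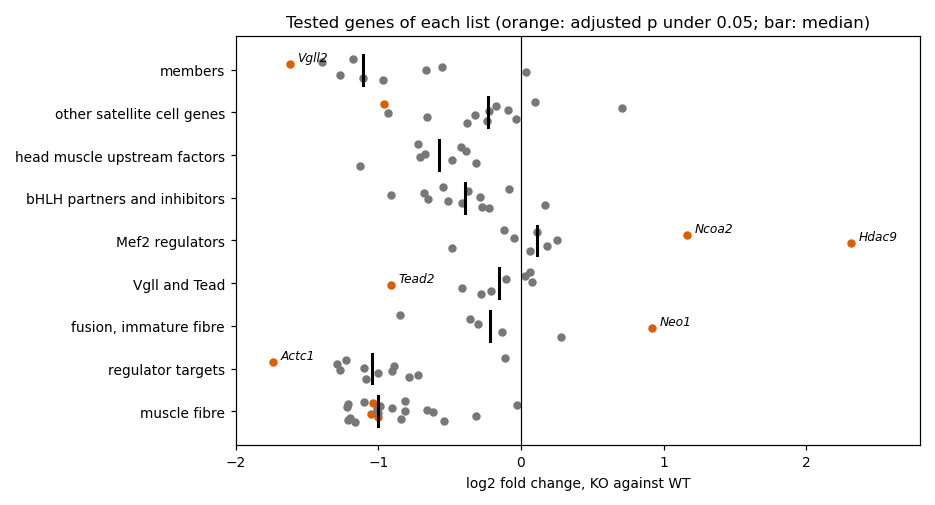
Log2 fold changes (x axis) of the tested genes of each list, with called genes in orange and list medians as bars. The regulator targets and muscle fibre genes lie around -1 like most members, and Hdac9, Ncoa2 and Neo1 stand apart on the positive side.

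The dimer partners and inhibitors of the helix-loop-helix factors numbered 12, all tested. Of these, 11 were negative (median -0.40) and 0 were called in either direction by the quasi-likelihood test, with 6 lower and 0 higher at an unadjusted p under 0.05, 2 lower in the exact test and 1 in DESeq2. The lowest p was that of Id3, an inhibitor that sequesters E proteins (-0.65, adjusted p = 0.0639). Bhlhe41 (-0.55, adjusted p = 0.0795), Id2 (-0.51, adjusted p = 0.0992) and Twist1 (-0.91, adjusted p = 0.102) came after it.

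Of 10 listed regulators of the MEF2 factors, 9 were tested, 3 with a negative and 6 with a positive log2 fold change, and 2 were called higher and 0 lower (1 lower at an unadjusted p under 0.05, and 0 in the exact test and in DESeq2), with a median of 0.11. Hdac9, a class IIa histone deacetylase that binds MEF2 and represses its targets, was 6.02, 4.46 and 5.71 CPM across WT1 to WT3, against 26.1, 37.0 and 17.7 CPM across KO1 to KO3. Each library labelled KO lay well above each WT library, and KO3 was again the nearest. Hdac9 rose from 5.40 ± 0.826 to 26.9 ± 9.65 CPM (SD, n = 3 each; log2 fold change 2.32 ± 0.28 (SE), adjusted p = 0.00251). Ncoa2 (GRIP1), a coactivator that binds MEF2C, rose from 95.7 ± 3.87 to 214 ± 29.7 CPM (log2 fold change 1.16 ± 0.14 (SE), adjusted p = 0.00262). Both genes kept their call in all 9 alternatives and in all 6 fits with a library left out. Which cells of the whole lip gave the Hdac9 and Ncoa2 reads was not tested, nor was any effect on MEF2 targets. Hdac9 overlaps Gm24429 and Ncoa2 overlaps Gm27881 on the opposite strand, and each overlaps further predicted genes on its own strand. The other deacetylase gene named by rank, Hdac5, had a log2 fold change of -0.49 (adjusted p = 0.118), and the p38 kinase gene Mapk14 had 0.25 (adjusted p = 0.259).

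The relatives and partners of VGLL2 were covered by 9 genes, 8 of them tested, with 1 called lower and a median of -0.16. This was Tead2, a DNA-binding partner of the VGLL proteins and of YAP, which fell from 14.0 ± 0.575 to 7.46 ± 1.20 CPM (SD, n = 3 each; log2 fold change -0.91 ± 0.17 (SE), adjusted p = 0.0224; overlapping Cd37 on the opposite strand). It was called in all 9 alternatives and, with a library left out, only without KO replicate 3. Tead1, another TEAD factor, had a log2 fold change of -0.42 (adjusted p = 0.116), and the paralogues Vgll3 (-0.28, adjusted p = 0.218) and Vgll4 (-0.21, adjusted p = 0.421) were smaller in difference than Vgll2; the difference between paralogues was not tested.

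Fusion and immature fibre genes were at low counts or did not pass the test, with 1 exception. Of 10 genes, 6 were tested. The fusion genes Tmem8c (myomaker) and Gm7325 (myomerger) had at most 14 and 4 counts in any library, Tmem8c with 5, 14 and 10 in WT1, WT2 and WT3 and 0, 0 and 7 in KO1, KO2 and KO3. A count of 0 allows up to 3 counts, which is 0.154 CPM in KO1 and 0.0986 CPM in KO2. Embryonic myosin Myh3 and the fetal acetylcholine receptor subunit Chrng had at most 5 and 3 counts, and perinatal myosin Myh8 had a log2 fold change of -0.85 (adjusted p = 0.133). Neo1, which encodes neogenin, a widely expressed netrin and RGM receptor that also takes part in myoblast differentiation, was the 1 gene of the list called higher, at 109, 119 and 127 CPM in the WT libraries and 215, 216 and 241 CPM in KO1, KO2 and KO3 (log2 fold change 0.92 ± 0.13 (SE), adjusted p = 0.00473; overlapping Gm47271 on the opposite strand). It kept its call in all 9 alternatives and all 6 fits with a library left out. Jam3 (-0.36, adjusted p = 0.267) and Jam2 (-0.30, adjusted p = 0.292) did not pass. Of the other genes named, Ncam1, Itga7, Des, Tead1, Bhlhe41 and Jam3 also overlap an annotated gene on the opposite strand.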

How the data were processed

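Raw counts per gene were deposited by the authors, made with HTSeq from uniquely mapped read pairs after alignment by TopHat2 2.0.8 (calling Bowtie2 2.1.0) against GRCm38. How HTSeq treated overlaps and strand is not given in the sources used here, so genes on opposite strands that overlap may share reads. All 6 libraries were used (0 columns unused, 0 entries without a gene name). No source says that mice were littermates, so the main fit held no pairing. Its p-values weigh the difference between genotypes against the spread between these mice.

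The 15009 of 26814 genes that reached 1 CPM in 3 or more libraries were fitted with edgeR 4.0.16 (R 4.3.3; TMM scaling, estimateDisp, glmQLFit with legacy=FALSE, glmQLFTest), with Benjamini-Hochberg adjustment over all of them. CPM values use TMM-scaled library sizes. The quasi-likelihood test replaced the exact test of the study, which was an alternative beside DESeq2 1.42.0, limma-voom (limma 3.58.1), other scalings and filters, a replicate block, and each library left out in turn. The members and all gene lists were chosen with earlier results of these data known. From each list besides the members, the 4 genes with the lowest p were named, together with counts over the list; genes under the filter and Tagln were named after their values were seen, and a few genes that the rule selects are not reported here. Single values were compared by two-sided exact permutation tests over libraries (scipy 1.17.1). Intervals are 95% intervals of the fit, and the limit of 3 counts covers counting error only. The procedure was also run on counts simulated from the dispersions of these libraries, with set changes in 200 genes. Such counts hold no library that departs from its group as KO3 did, so the run does not assess the calls given here. Positions and exon lengths come from GENCODE M21 (GRCm38), upstream sequence from RefSeq (GRCm38.p6). The RTqPCR measurements of the study were not analysed here.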

Additional observations from a re-analysis of the deposited data

How the results depend on the processing

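The 8 tested members other than Mef2a had a negative log2 fold change in each fit that included them; Pax7 was under the filter with at least 10 counts in every library and in the 3 fits without a WT library. Mef2a, near 0, turned to -0.027 under upper-quartile normalization and ranged from -0.025 (without KO replicate 2) to 0.17 (without KO replicate 3) with a library left out. The count of members called lower was 1 with the quasi-likelihood test, 6 with edgeR's exact test and 3 with DESeq2. It was 1 with limma-voom, with each other scaling, with each other filter and with the replicate block, Vgll2 in each case. Leaving out single libraries gave 0 to 7 members; the 7 came without KO replicate 3 (Myod1, Myog, Myf6, Mef2d, Vgll2, Pax7 and Cdh15), and the 0 without any other library. Over all tested genes, 314 were called lower and 657 higher. The exact test gave 1073 lower and 1165 higher, DESeq2 898 and 1511, and the replicate block 217 lower and 580 higher. The lower calls numbered 207 with DESeq2's size factors, 204 without a filter and 204 with at least 10 counts in every library. With libraries left out they ran from 18 to 2395 lower and from 208 to 2496 higher, the largest counts without KO replicate 3. The cause of these differences was not tested. Same-numbered WT and KO libraries deviated with correlations of -0.19, 0.31 and 0.33 over genes, and not every library correlated best with its own number. With 3 libraries per genotype this check cannot decide whether the numbers pair the samples. The replicate block changed no member's call.

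The median of the members relative to the fibre list was -0.05. It became 0.10 with the summed CPM of the list, -0.16 with a pseudocount of 0.1 CPM and 0.05 when the 3 fibre genes under the filter were dropped, an alternative added after seeing the data, and lay between -0.17 and 0.05 with a library left out, each move within the spread between WT libraries. Among the members, depth limits Myf5 and Pax7 most, which had at most 27 and 50 counts in a library. Other members were also low in the libraries labelled KO. Vgll2 had 22, 34 and 52 counts across KO1 to KO3, and Cdh15, Myod1 and Myog had 18, 21 and 23 counts in KO1.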
